A study of Mus musculus with 8 samples.

Results

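The time course of RAW264.7 cells given lipopolysaccharide (LPS) without melatonin comprised 4 arrays of the series' 8, chosen by their titles: an unstimulated control and cells after 1, 3 and 5 h of LPS. RAW264.7 is an established mouse macrophage line, grown here in RPMI1640 with 5% fetal bovine serum, and the LPS was from E. coli O55:B5 at 100 ng/ml. The other 4 arrays held cells first given 1 mM melatonin for 1 h, without LPS or followed by the same LPS times. They enter here only as a second time course with a control of its own, and their treatment field goes against their titles for 3 arrays and is missing for the other one. The titles of the 4 arrays without melatonin match their treatment field. The layout addresses how the transcripts of a macrophage line move over the first hours of LPS. Each time had 1 array, so every difference below is a size without a replicate check and without a test. No unstimulated array was taken at 1, 3 or 5 h, so the effect of LPS and that of time in culture cannot be told apart. Each time also lay at its own position on 1 slide, and position and time cannot be told apart either.

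LPS, from the outer membrane of Gram-negative bacteria, is detected on macrophages by Toll-like receptor 4 with CD14 and MD-2. The receptor signals through the adaptor MyD88 to NF-kB and the MAP kinases, which act on promoters that are already open, and through the adaptor TRIF to interferon regulatory factors and the type I interferon gene Ifnb1. Secreted interferon then signals back to the cell, so that interferon response genes form a later wave. Immediate early genes need no new protein to be transcribed, and many of the earliest transcripts are short-lived and encode inhibitors of the same pathways.

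Total RNA was labelled with Cy3 and hybridised to 1-colour Agilent arrays. A gene's relative signal is its processed signal divided by the 75th percentile of its array, so that 1 is that percentile, and values are given in the order control, 1 h, 3 h and 5 h. Differences are log2 of the relative signal minus the control, so that 1 is 2-fold. The number of arrays limits the precision. Within an array, 300 probes spotted 10 times had a median SD between 0.042 and 0.045 log2, which covers spot noise only. The share of probes well above background ran from 49.05% to 52.98%, and no spot was saturated. Where 1 side was not well above background the fold is a lower bound, set by the dimmest signal that counted as well above background on that array, and is written as "at least". Of the 10 macrophage markers examined, 10 were well above background on all 4 arrays. Of 18 markers of other cell types, 13 were on none and 3, Cd3e, Col1a2 and Pecam1, were on all 4. In a wider list of such markers 12 were measured, and 1, 1 and 2 of them were at least 2-fold higher at 1, 3 and 5 h, among them the collagen gene Col1a2 (differences 0.83, 1.62 and 1.66), with none lower. These counts are 8.33%, 8.33% and 16.7%, against 3.49%, 8.21% and 9.67% of all genes.

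Of 16570 genes measured, 579 were at least 2-fold higher (3.49%) and 409 at least 2-fold lower (2.47%) after 1 h. After 3 h the counts were 1360 higher (8.21%) and 1670 lower (10.1%), and after 5 h they were 1602 higher (9.67%) and 2005 lower (12.1%). Higher genes outnumbered lower ones at 1 h, and lower genes outnumbered higher ones at 3 and 5 h. The order at 3 h turned with normexp background correction, to 1087 higher and 1074 lower, and with a 3-fold threshold, to 757 and 663. At least 8-fold, 112 genes were higher and 29 lower at 1 h, 243 and 98 at 3 h, and 269 and 124 at 5 h. The median size of the difference over all genes grew from 0.18 log2 at 1 h to 0.41 at 3 h and 0.46 at 5 h, while the median difference itself stayed at -0.02, 0.01 and 0.02.

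**Figure D1:**
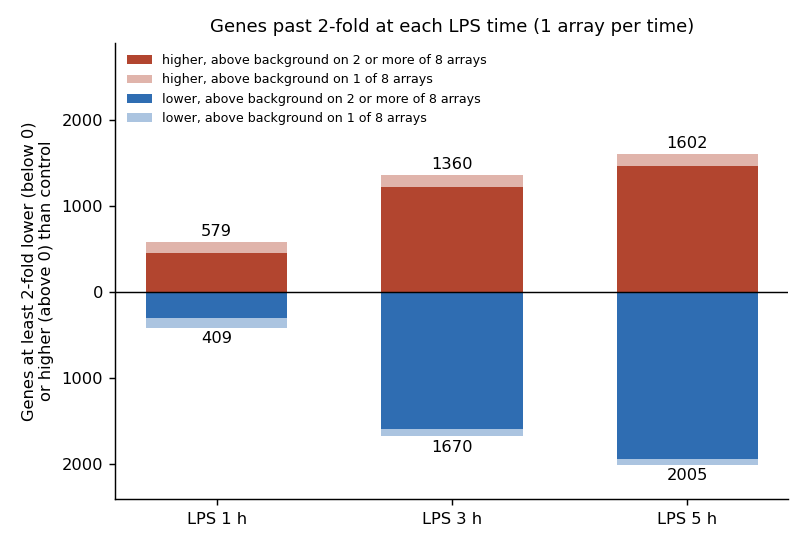
Bars give the number of genes at least 2-fold higher (above 0) or lower (below 0) than control at 1, 3 and 5 h of LPS, 1 array per time, with the pale part holding genes well above background on 1 of the series' 8 arrays. Lower genes went from 409 at 1 h to 2005 at 5 h and outnumber the higher genes at 3 h, an order that turned with normexp (1087 higher, 1074 lower) and with a 3-fold threshold (757 and 663).

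For a comparison without LPS, the array of melatonin alone was set against the control. It holds any effect of melatonin as well as the spread between arrays, which cannot be told apart. There 208 genes were at least 2-fold higher (1.26%) and 277 lower (1.67%), and the median size was 0.22 log2. That is above the median size at 1 h of LPS (0.18) but its 95th percentile, 0.83, lay below those of LPS, which were 1.14, 2.19 and 2.31 at 1, 3 and 5 h. Scaling by the spike-in RNAs in place of the 75th percentile moved all differences by -0.005 (1 h), -0.110 (3 h) and -0.205 (5 h). With it 32.1% of the genes past 2-fold at 5 h were higher, against 44.4% with the 75th percentile, and 38.1% against 44.9% at 3 h. With normexp background correction 70.4% were higher at 1 h, against 58.6%.

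Sorted by the times at which they passed 2-fold, the largest groups were genes that moved by 3 h and were still displaced at 5 h, 721 higher and 1102 lower. Another 311 were higher and 257 lower at all 3 times. All 3 times were set against the same control array, so an error in a gene's control value would move all 3 differences the same way. That bears on these groups and on the shares that follow, and was not tested. Genes past 2-fold at 5 h only numbered 544 higher and 631 lower, and 12016 genes (72.5%) never passed it. Of the 579 genes higher at 1 h, 57.2% were past 2-fold at 3 h and 57.5% at 5 h, and of the 1360 higher at 3 h, 76% were past it at 5 h. For lower genes 73.6% of the 409 at 1 h were still lower at 3 h, and 81.5% of the 1670 at 3 h at 5 h. Among genes well above background on 2 arrays or more of the series' 8, the share of 1 h genes still past 2-fold at 3 h was 73.2% for higher and 71.4% for lower ones. For higher genes the count past 2-fold at both times was 331 with and without this filter. A gene seen on the 1 h array alone cannot be 2-fold higher at 3 h, so the filter could only raise that share. The 311 genes higher throughout were highest at 1 h in 49 cases, at 3 h in 130 and at 5 h in 132.

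**Figure D2:**
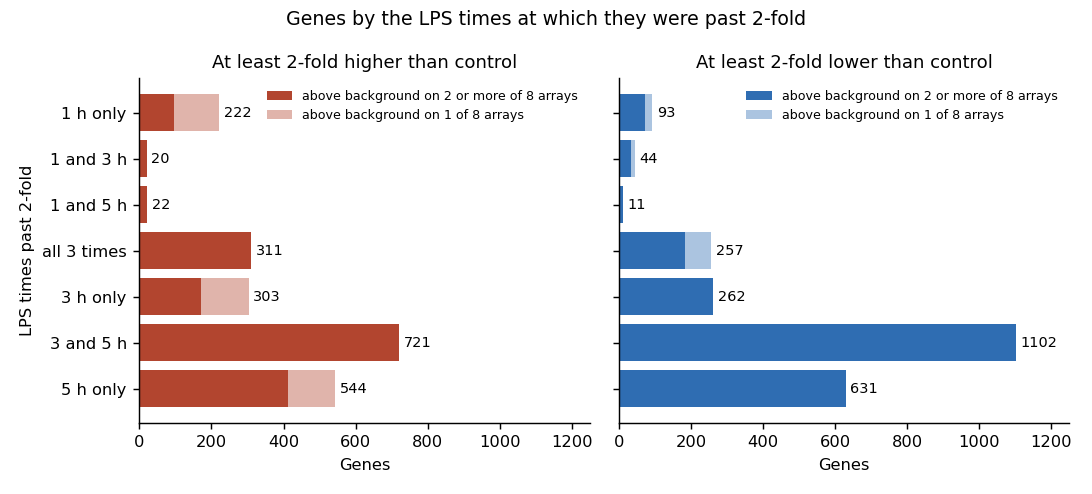
Bars count genes by the LPS times at which they were at least 2-fold higher (left) or lower (right) than control, with the pale part holding genes well above background on 1 of 8 arrays. The largest bars are 721 higher and 1102 lower genes at 3 and 5 h, and the pale part is largest for genes higher at 1 h only.

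Some kinetic groups rest in part on spots seen on 1 array. Of 222 genes higher at 1 h only, 127 (57.2%) were well above background on no other array of the 8, as were 43.6% of the 303 higher at 3 h only and 24.1% of the 544 higher at 5 h only. Among lower genes the share was 22.6% of the 93 at 1 h only and 28.8% of the 257 at all 3 times, and 0% at 3 h only and at 5 h only. Such lower genes were seen on the control alone. Their bounds rest on the lowest signal above background of each LPS array, 0.036, 0.045 and 0.051 at 1, 3 and 5 h, so their group follows these floors in part. With a common floor 29 genes were lower at 1 h only. The higher genes seen on 1 array include 5 of the 6 largest differences named for the 1 h-only group and all 6 named for the 3 h-only group. Aass stood at 1.48 and Cdc42bpa at 1.11 at 1 h, and Endou at 2.74 at 3 h, with the other 3 arrays of the time course not well above background. Of the 434 genes well above background on the 1 h array alone of the 4, 8.53% were so on the 1 h array with melatonin. For the control array alone it was 23.5% of 438. Whether such values come from the cells or from the array was not tested. Single-time genes named from here on had a signal well above background on 2 arrays or more of the 8, a choice made after their values were seen.

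Genes of a list of immediate early factors, most of them transcription factors, were past 2-fold in larger number at 1 h than later. Of 29 measured, 21 were at least 2-fold higher and 2 lower at 1 h, against 14 and 5 at 3 h and 15 and 3 at 5 h, and their median difference was 2.32, 1.17 and 1.23. A list median takes bounds at their value and leaves out members below background on both arrays. Counts of this and the later lists stand beside the shares over all genes at 1, 3 and 5 h. Those were 3.49%, 8.21% and 9.67% higher and 2.47%, 10.1% and 12.1% lower. The zinc finger factor Egr1 had a relative signal of 0.969, 48.4, 11.8 and 7.93 (differences 5.64, 3.61 and 3.03). Egr2, of the same family, had 0.257, 12.8, 2.201 and 0.637. Both were highest at 1 h and still above control at 5 h, Egr1 by more. Egr3 was back at its control level by 5 h, with 0.279, 7.69, 0.426 and 0.276 and differences of 4.79, 0.61 and -0.01. Egr4 was well above background at 1 h alone of the 4 arrays, where it was at least 6.66-fold higher. The Egr genes thus shared the time of their highest value but not what followed. Nr4a1, an orphan nuclear receptor, had a second high value, with 0.745, 28.2, 4.57 and 21.5.

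Serum response factor, which drives many immediate early genes, binds the CArG box. Egr2 is shown because its stretch holds one, with its array probe at chr10:67004758-67004817 on mm9. The 250 bases before its start on GRCm38.p6 (RefSeq), chr10:67537316-67537565 on the plus strand, follow with the CArG box in capitals, 72 bases before the start:
Egr2: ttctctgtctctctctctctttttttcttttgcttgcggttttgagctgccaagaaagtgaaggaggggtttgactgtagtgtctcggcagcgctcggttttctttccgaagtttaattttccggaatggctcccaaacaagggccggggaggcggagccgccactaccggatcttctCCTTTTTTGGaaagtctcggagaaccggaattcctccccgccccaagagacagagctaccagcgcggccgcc
A CArG box lay in this window in 18.5% of 27 immediate early promoters, in 3.73% of the 268 promoters of genes higher at all 3 times and in 1.47% of all 32851 promoters of the table. None of 63 promoters matched to 52 genes higher at 1 h only had one, a set too small to tell from the 1.47% of all promoters. Matches were searched on both strands and are a description of the sequence, not of binding.

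The AP-1 genes moved apart from one another. Jun had 5.44, 38.9, 3.31 and 7.34, with a difference of 2.84 at 1 h and -0.72 at 3 h. Fos had 1.37, 4.37, 0.539 and 1.43, a smaller difference at 1 h (1.68) and a value more than 2-fold under control at 3 h (-1.34). Both were near control at 5 h, while Junb with 19.1, 199.8, 135 and 139.6, Fosl1 with 0.365, 2.74, 2.68 and 3.72 and the small Maf protein gene Maff with 0.0901, 2.41, 2.03 and 2.195 stayed high. The stress factor Atf3 was highest at 3 h, with 0.449, 6.46, 36.1 and 18.1. Myc, the growth regulator, was not well above background without LPS and reached 0.848, 4.03 and 3.12, at least 22.4, 106 and 82.3-fold higher.

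Other genes were high at 1 h and back within 2-fold of control by 3 or 5 h. Arc, best known from neurons, had 0.397, 7.72, 0.707 and 0.666, with a difference of 4.28 at 1 h. Btg2, an antiproliferative gene, had 3.41, 23.6, 3.73 and 4.64, and its other probe did not move the same way at 3 h. Bhlhe40, a repressor linked to the clock, had 0.632, 2.09, 0.397 and 0.343. The co-chaperone Dnajb1 had 9.05, 29.3, 5.39 and 7.87, the one gene of 12 cytosolic heat shock chaperones past 2-fold at 1 h (list medians 0.15, 0.24 and 0.32). At 3 h 1 of the 12, Hspa1b, was lower, and at 5 h none was past it. Arc, Egr3, Jun, Bhlhe40 and Dnajb1 were also more than 2-fold higher at 1 h in the cells given melatonin, by 4.68, 6.21, 3.28, 1.64 and 2.71 log2 against their own control. Insig1, which holds back sterol synthesis, also belongs here, with 0.762, 2.63, 1.11 and 1.37.

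Klf2, Klf4 and Id2 of the same list went the other way. Klf2 had 0.996, 0.592, 0.188 and 0.108 and Klf4 0.714, 0.324, 0.0822 and 0.07599, differences at 5 h of -3.20 and -3.23. Id2, an inhibitor of helix-loop-helix factors, was lower at 1 and 3 h and above control at 5 h, with 4.31, 1.17, 1.42 and 6.24. In the cells given melatonin Klf2 and Klf4 were not lower at 1 h (0.44 and 0.29). That difference was not tested.

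**Figure D3:**
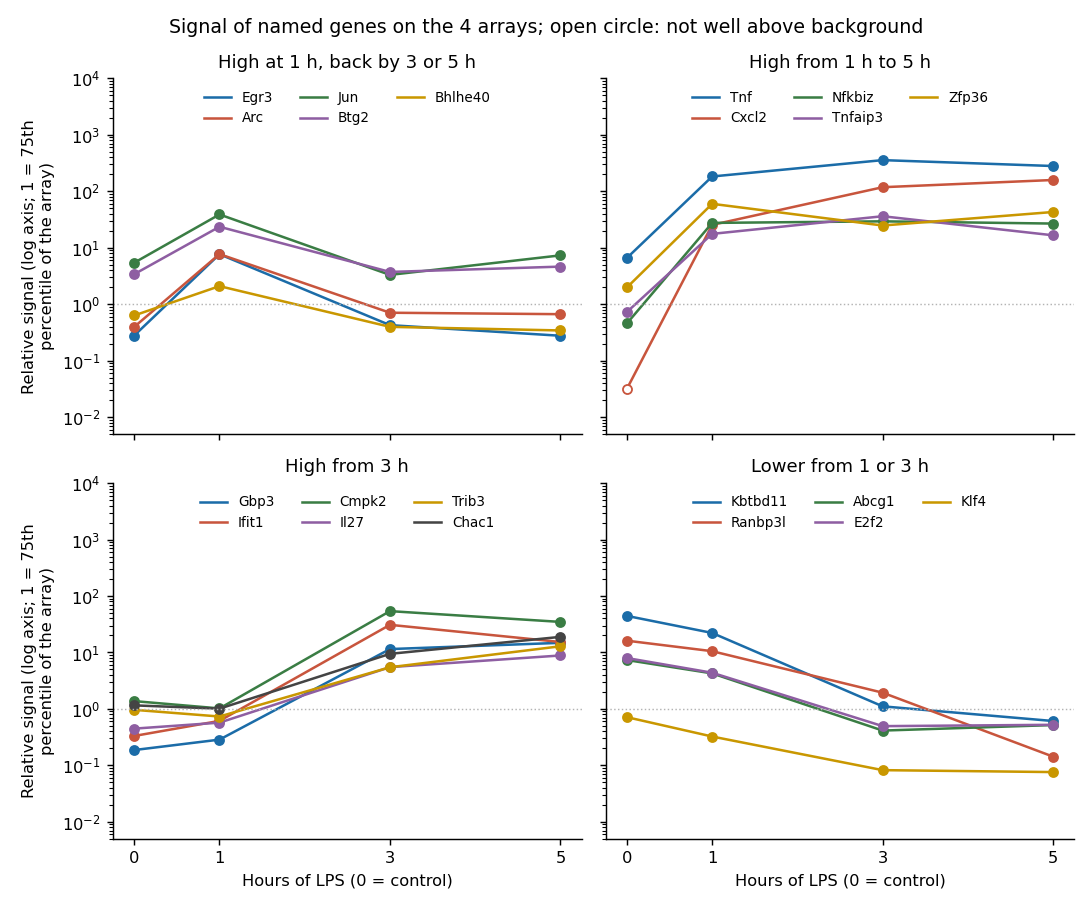
Relative signal (log axis, 1 = 75th percentile of the array) of named genes against hours of LPS (0 = control) in 4 panels by kinetics, 1 array per point, open circles not well above background. Egr3 and Bhlhe40 return to or below control by 5 h, Nfkbiz stays between 26.8 and 29.4 from 1 h on, the interferon genes move after 1 h, and Kbtbd11 goes from 44.4 to 0.610.

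Genes that encode NF-kB subunits and its feedback inhibitors were higher early and stayed so. Of 20 measured, 16, 17 and 17 were at least 2-fold higher at 1, 3 and 5 h, none was lower, and the median difference was 1.56, 2.15 and 2.18. Nfkbiz, an atypical IkB that co-activates secondary genes, had 0.457, 27.6, 29.4 and 26.8, nearly level from 1 h on. Tnfaip3, which encodes the ubiquitin-editing inhibitor A20, had 0.729, 17.6, 36.2 and 16.6, highest at 3 h. Nfkbia, the IkB-alpha gene, was bright already in the control and had 32.6, 218, 308 and 321. Subunits differed in timing. Rel was at 3.49, 22.4, 23.97 and 23.97, close to its full difference at 1 h, whereas Nfkb1, with 10.02, 18.7, 74.7 and 75.5, passed 2-fold only by 3 h, and Rela, with 18, 34.1, 23.8 and 25.1, did not pass it. Cyld and Tnip2 did not pass it either. The adaptor gene Traf1 had 4.05, 60.6, 95.1 and 89.3.

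MAP kinase phosphatases split into 2 directions. Dusp2, Dusp5, Dusp1, Dusp4, Dusp8 and Dusp16 were at least 2-fold higher at all 3 times, 6 of 12 measured (list medians 1.32, 1.64 and 1.48), and 1, 3 and 2 were lower. Dusp2 had 6.35, 235, 123 and 164, Dusp5 0.203, 9.02, 5.72 and 6.25 and Dusp1 0.708, 6.95, 4.42 and 1.97, all 3 highest at 1 h. Dusp7, Dusp14 and Dusp6, whose products include phosphatases of ERK, were lower at 3 h, Dusp7 with 2.45, 0.756, 0.291 and 0.651 and Dusp14 with 2.13, 1.51, 0.416 and 0.2999.

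Factors that destroy AU-rich or stem-loop mRNAs also moved both ways. Zfp36, which encodes tristetraprolin, had 1.98, 60.1, 24.8 and 43.1 (differences 4.92, 3.64 and 4.44). Its relative Zfp36l2 went the opposite way, with 12.1, 6.12, 0.921 and 1.62 (differences -0.98, -3.71 and -2.90), and Zfp36l1 stayed within 2-fold. The RNase gene Zc3h12a had 0.347, 4.76, 6.01 and 5.15. Of 15 mRNA decay factors, 4, 6 and 5 were higher and 0, 2 and 3 lower at 1, 3 and 5 h, with medians of 0.63, 0.20 and 0.45.

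Cytokine genes were higher in number and in size as time went on. Of 21 measured, 12, 20 and 20 were at least 2-fold higher at 1, 3 and 5 h and none was lower, with medians of 2.21, 4.44 and 5.41. Tnf, the central early cytokine of macrophages (probe at chr17:35336795-35336854 on mm9), had 6.61, 183, 357 and 281, most of its difference in place at 1 h. Il1b had 0.454, 23.5, 183 and 261, and its difference went on growing (5.70, 8.65 and 9.16). Il6 was not well above background without LPS and was at 0.1896, 56.9 and 137 after it, at least 4.998, 1500 and 3617-fold higher. Its step between 1 and 3 h, from 0.1896 to 56.9, has both sides above background.

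Several more cytokines were dim in the control. The colony-stimulating factor genes Csf2 and Csf3 were at least 20.9-fold and 17.6-fold higher at 1 h and at least 598-fold and 1848-fold at 5 h. Il1a had 0.163, 11.97 and 25.2 at 1, 3 and 5 h, a late pattern like that of Il6. Ifnb1, the type I interferon gene, was well above background from 1 h on, with 1.05, 8.86 and 5.42, and highest at 3 h. Lta, which encodes lymphotoxin alpha, had 0.0646, 0.5697, 8.296 and 21.9. Tnfsf15, of the TNF family, was not dim in the control and had 1.08, 8.09, 73.1 and 32.2. Edn1, the endothelin gene, had 0.458, 10.3 and 9.71 after 1, 3 and 5 h. Ifnb1, Tnfsf15 and Edn1 were lower at 5 h than at 3 h, whereas Il6, Csf2, Csf3 and Il1a were higher.

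Il1rn, the interleukin 1 receptor antagonist, had 0.443, 0.775, 9.58 and 25.98, within 2-fold at 1 h. Il27, with 0.447, 0.571, 5.495 and 8.84, was within 2-fold at 1 h as well, and its partner subunit Ebi3 had 9.88, 14.3, 42.3 and 54.8. Il12b was the one cytokine measured whose difference did not pass 2-fold, with 0.0617, 0.0621 and 0.0618 after a control not well above background. Its differences are lower bounds (0.71 and 0.70 at 3 and 5 h), so whether it was 2-fold higher cannot be told. Il10, Il12a, Gdf15 and Inhba were not well above background on any of the 4 arrays.

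Chemokine genes fell into an early and a late set. Of 17 measured, 8, 13 and 15 were at least 2-fold higher at 1, 3 and 5 h, with medians of 1.04, 5.22 and 5.03, and 0, 1 and 1 were lower. The limit given for cytokines, that members dim in the control could not be lower, holds here too. Of the 10 chemokines above background on all 4 arrays, 6, 7 and 8 were higher and 0, 1 and 1 lower. Cxcl2, which attracts neutrophils, was not well above background in the control and had 25.4, 118 and 159, at least 670.4, 3118 and 4186-fold higher. Cxcl10, which attracts T cells, had 0.822, 84.6, 415 and 256 and Ccl4 8.84, 166, 565 and 529, both highest at 3 h. Ccl5 was just past 2-fold at 1 h and had 3.89, 7.96, 295 and 403, and Ccl2, the monocyte attractant, had 1.75, 5.66, 80.6 and 182. Ccl17, Ccl22, Ccl7 and Ccl12 were under 2-fold or not well above background at 1 h and at least 199.9, 32.7, 120.2 and 25.03-fold higher at 5 h. Cxcl14 was the lower one, with 3.37, 2.95, 1.16 and 0.501, and its other probe did not move the same way at 3 h. Cxcl1, Cxcl9 and Ackr3 were not well above background on any of the 4 arrays.

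NF-kB dimers bind the kB consensus. Cxcl2, whose bound at 1 h was the largest of all genes named here, is shown with its probe at chr5:91334534-91334593 on mm9. The 250 bases before its start on GRCm38.p6 (RefSeq), chr5:90903649-90903898 on the plus strand, follow with a pair of overlapping kB matches in capitals, 97 and 96 bases before the start:
Cxcl2: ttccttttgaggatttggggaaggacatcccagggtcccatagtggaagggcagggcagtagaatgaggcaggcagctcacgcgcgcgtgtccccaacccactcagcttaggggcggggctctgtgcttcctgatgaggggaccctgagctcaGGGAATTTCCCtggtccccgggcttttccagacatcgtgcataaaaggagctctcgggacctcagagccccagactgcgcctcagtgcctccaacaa
The kB consensus lay in this window in 59.1% of 22 promoters of NF-kB subunit and feedback genes, in 36.4% of 11 chemokine and 35.3% of 17 cytokine promoters, and in 18.3% of the 268 promoters of genes higher at all 3 times. It lay in 7.25% of all promoters of the table and in 8.34% of 10499 promoters of genes that never passed 2-fold.

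The interferon response was near control at 1 h and in place at 3 h. Of 40 interferon response genes measured, 4 were at least 2-fold higher and 2 lower at 1 h, and 36 were higher and none lower at 3 h and again at 5 h. The median difference was -0.04, 2.46 and 2.80. The 4 higher at 1 h were Rsad2, Isg15, Ifih1 and Oasl1, and the 2 lower were Mx1 and Irf1. Rsad2, the antiviral enzyme viperin, had 0.299, 1.34, 139.5 and 68.5. Ifit1, which binds viral RNA ends, had 0.332, 0.613, 30.9 and 15.3, and Ifit3 0.267, 0.194, 17.7 and 16.2. Cmpk2, a nucleotide kinase gene, had 1.37, 1.02, 53.97 and 34.8, a little lower at 1 h (-0.43) before it was high. Isg15, the ubiquitin-like modifier, had 13.2, 37.8, 278 and 288.

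From 3 to 5 h these genes parted. Rsad2, Ifit1, Mx1 and Cmpk2 were lower at 5 h than at 3 h, and Mx1 had 0.572, 0.155, 19.5 and 6.69. The guanylate-binding protein genes, which act on microbes inside cells, held or went on upward, with Gbp3 at 0.187, 0.286, 11.5 and 14.8 and Gbp7 at 0.0739, 0.0739, 2.62 and 2.88. Gbp2 was not well above background before 3 h and at least 77.5 and 98.1-fold higher at 3 and 5 h. Irf7, a transcription factor of the pathway and bright in the control, had 143, 139, 216 and 294 and passed 2-fold at 5 h only. Irf1 alternated, with 2.93, 1.25, 9.72 and 1.97: lower than control at 1 h, 2-fold and more higher at 3 h, and below control again at 5 h. In the cells given melatonin Irf1 was within 2-fold at every time, with differences of -0.42, -0.54 and -0.20. Bst2 never passed 2-fold.

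Interferon-stimulated gene factor 3 and interferon regulatory factors bind elements built on GAAANNGAA. Gbp2 and its paralog Gbp2b are shown because both passed 2-fold at 3 and 5 h alone and hold a match. Gbp2b had 3.26 and 3.596 at 3 and 5 h and was not well above background before. Probes of such close relatives can share signal. The 250 bases before each start on GRCm38.p6 (RefSeq), chr3:142620413-142620662 for Gbp2 and chr3:142594597-142594846 for Gbp2b, both on the plus strand, follow with the match in capitals, read there on the opposite strand, 58 and 136 bases before the start:
Gbp2: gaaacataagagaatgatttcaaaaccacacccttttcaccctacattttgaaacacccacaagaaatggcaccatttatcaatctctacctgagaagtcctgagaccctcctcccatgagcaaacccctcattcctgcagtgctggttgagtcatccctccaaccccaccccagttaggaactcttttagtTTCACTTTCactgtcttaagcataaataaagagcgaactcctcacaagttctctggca
Gbp2b: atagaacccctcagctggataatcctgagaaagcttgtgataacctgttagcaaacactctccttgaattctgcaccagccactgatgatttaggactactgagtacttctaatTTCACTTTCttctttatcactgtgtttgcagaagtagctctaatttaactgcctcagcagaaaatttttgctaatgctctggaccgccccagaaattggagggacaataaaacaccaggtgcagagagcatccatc
GAAANNGAA lay in this window in 44.7% of 38 interferon response promoters, in 11.8% of the 679 promoters of genes higher at 3 and 5 h, in 7.84% of the 268 of genes higher at all 3 times and in 7.13% of all promoters.

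Effector genes of macrophage defence followed 2 schedules. Ptgs2, the inducible cyclooxygenase, had 0.137, 7.495, 81.5 and 146 (differences 5.77, 9.22 and 10.05), and Acod1, which makes itaconate, had 17.9, 212, 545 and 547. Both were well past 2-fold at 1 h. Nos2, the inducible nitric oxide synthase, had 2.196, 5.42, 34.01 and 46.8. Lcn2, which binds bacterial iron carriers, had 0.189, 0.459, 9.16 and 39.02, and Slc7a2, which imports arginine, was well above background only from 3 h on, with 0.739 and 1.77. Hpgd, which degrades prostaglandins, went the other way, from 1.48 to 0.815 at 1 h and then to values not well above background, at least 32.8 and 29.2-fold lower at 3 and 5 h. Ptgs1, the constitutive cyclooxygenase, and the haptoglobin gene Hp were lower at 3 and 5 h too. Of 18 genes of nitric oxide, prostaglandin, itaconate and antimicrobial products, 6, 11 and 12 were higher and 0, 3 and 3 lower at 1, 3 and 5 h (medians 0.29, 2.02 and 2.49).

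The receptors and adaptors of the pathway moved less. Tlr4 itself had 7.04, 8.21, 11.5 and 12.9 and stayed within 2-fold, with differences of 0.22, 0.71 and 0.88, while its co-receptor Cd14 had 67.2, 124, 206 and 250.3. Tlr2 had 18, 37.6, 52.9 and 44.1 and Tlr13, a receptor for bacterial RNA, 7.58, 3.96, 1.94 and 1.79. Ticam1, which encodes TRIF, was higher from 1 h on (1.95, 2.22 and 2.38), and Myd88 was past 2-fold at 5 h only (0.19, 0.999 and 1.13). Irak3, the inhibitory kinase of the family, had 0.371, 0.361, 2.34 and 3.97, and Ikbke, a kinase upstream of interferon factors, 0.376, 1.73, 8.06 and 6.95. Of 26 genes of Toll-like receptor signalling, 3, 13 and 14 were higher and 0, 1 and 1 lower (medians 0.27, 1.03 and 1.11).

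Cell surface genes of activation were higher from the first hour. Of 19 costimulatory and adhesion genes 12, 16 and 17 were at least 2-fold higher and 0, 1 and 1 lower (medians 2.08, 2.91 and 2.85). Cd83 had 3.06, 59.5, 61.8 and 57.01, nearly level from 1 h on, whereas Cd40, through which T cells license antigen-presenting cells, had 0.141, 0.453, 7.15 and 11.1. Plau, the plasminogen activator urokinase, was lower at 3 and 5 h, with 3.82, 2.997, 0.462 and 0.528. Plaur, the urokinase receptor, had 1.54, 13.1, 77.1 and 93.7.

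The SOCS genes, which block cytokine receptors, differed in time. Socs3 had 2.46, 34.1, 83.3 and 65.5 and was past 2-fold at 1 h, and Socs1, with 0.481, 0.664, 3.78 and 1.58, by 3 h. Cish, of the same family, had 0.1204, 5.33, 39.3 and 22.1 (differences 5.47, 8.35 and 7.52). The kinase gene Pim1 had 1.72, 24.6, 48.4 and 33.3. Of 15 STAT3 and SOCS genes 4, 8 and 8 were higher and none lower (medians 0.68, 1.4 and 1.43).

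**Figure D4:**
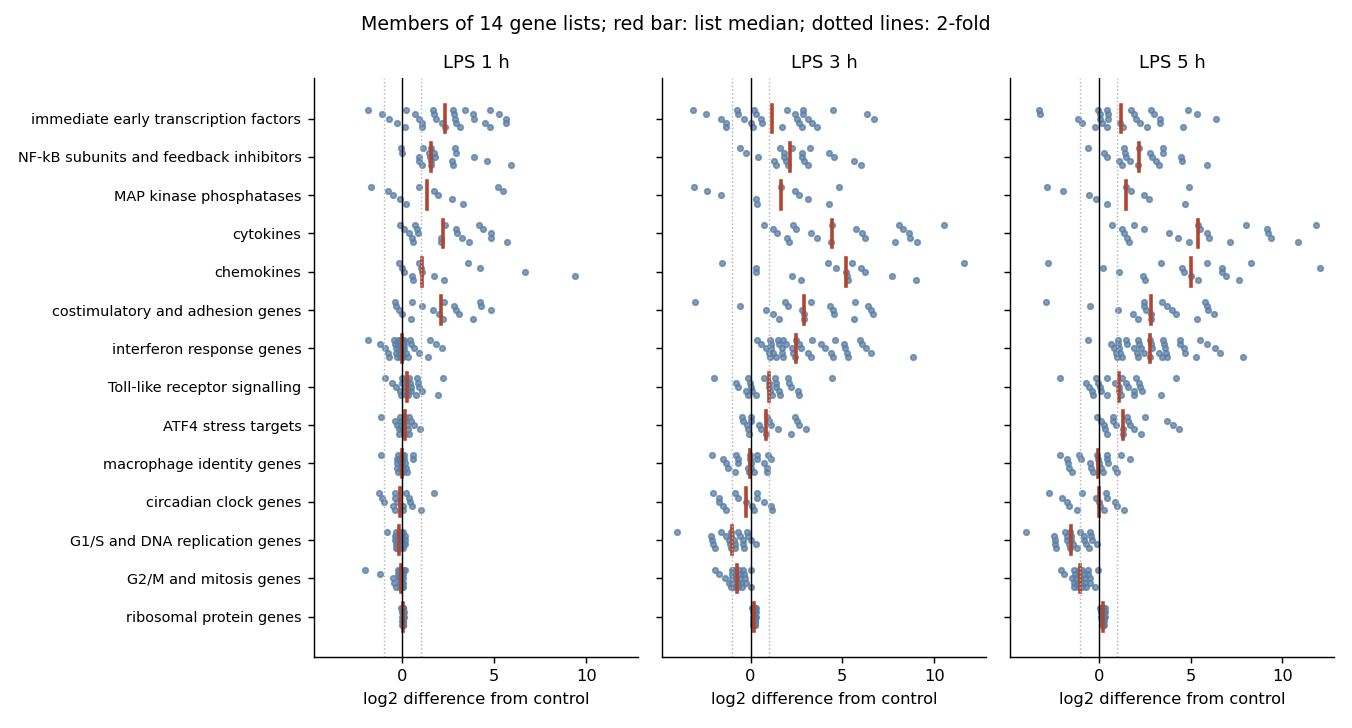
Each point is the log2 difference from control of 1 gene of 14 lists at 1, 3 and 5 h of LPS, red bars are list medians and dotted lines mark 2-fold. At 1 h the medians of immediate early (2.32) and cytokine genes (2.21) stand apart from 0 while interferon response genes are at -0.04, and by 5 h interferon genes are at 2.80 and G1/S genes at -1.51.

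Targets of the stress factor ATF4 were a late group. Of 19 measured, none was higher and 1, Ddit4, was lower at 1 h, 7 were higher at 3 h and 11 at 5 h, with medians of 0.15, 0.85 and 1.35. Chac1, which degrades glutathione, had 1.16, 1.01, 9.45 and 18.9, and the pseudokinase gene Trib3 0.963, 0.733, 5.47 and 12.9. Cth, which makes cysteine, had 0.0489, 0.06195, 0.302 and 0.998, and the cystine transporter gene Slc7a11 0.894, 1.23, 4.08 and 5.17. Each was within 2-fold at 1 h and higher at 5 h than at 3 h. Atf4 had 74.8, 115, 209.5 and 287. The serine synthesis genes Phgdh and Psat1, also ATF4 targets, stayed within 2-fold (-0.08 and 0.13 at 5 h), as did Ddit3 (0.79). Of 15 chaperones of the unfolded protein response 1, 1 and 2 were higher, Herpud1 at each time (1.89, 1.46 and 1.67) and Dnajb9 at 5 h (1.21), and none was lower. Of 13 NRF2 targets 0, 2 and 2 were higher, Slc7a11 and Txnrd1, and 0, 2 and 2 lower, Gclc and Osgin1.

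Genes of G1/S and DNA replication went down with time. Of 24 measured, 0, 12 and 16 were at least 2-fold lower at 1, 3 and 5 h and none was higher. The median difference was -0.17 at 1 h, -0.98 at 3 h and -1.51 at 5 h. E2f2, an activator E2F, had 7.96, 4.37, 0.495 and 0.523. The G1 cyclin genes Ccnd1, with 17.7, 13.7, 4.21 and 3.45, and Ccne1, with 13.2, 10.54, 3.02 and 2.49, had most of their difference by 3 h. The replication helicase genes came later, with Mcm6 at 55.9, 51.7, 31.2 and 18.8 and Mcm7 at 23.7, 20.9, 12.5 and 7.07. Tyms and Cdc45 did not pass 2-fold.

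Mitotic genes were displaced less. Of 26 G2/M and mitosis genes 2, 9 and 13 were at least 2-fold lower, none was higher, and the medians were -0.10, -0.74 and -0.99. The 2 lower at 1 h, Fbxo5 with 5.61, 2.36, 1.72 and 1.51 and Kifc1 with 0.714, 0.172, 0.186 and 0.175, stayed low. The proliferation marker Mki67 had 44.2, 44.7, 21.9 and 17.6. Cdk1 (-0.18 at 5 h) and Ube2c (-0.06) stayed near control, where the cells given melatonin had -1.11 and -1.44. The difference between the time courses was not tested. CCAAT, the motif of NF-Y, lay in 90.5% of 21 G2/M and 77.3% of 22 G1/S promoters against 33.8% of all promoters, and TTTGAA of the CHR element in 33.3% of the G2/M promoters against 16.0%.

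Genes of the p53 list split. Gadd45a had 0.0786, 1.25, 2.18 and 1.06, Gadd45b 1.101, 14.8, 27.6 and 27.7 and Cdkn1a, the CDK inhibitor p21, 12.1, 39.3, 30.6 and 27.3. The other probes of Cdkn1a did not move the same way at 3 and 5 h, and the median over its probes stood at -0.025 and -0.132 there. Sesn1, with 8.999, 5.59, 1.04 and 1.08, and Phlda3, with 6.29, 4.82, 1.16 and 1.84, were lower, as was Trp53inp1, at least 9.89-fold at 3 h. In all 10, 8 and 9 of 18 were higher and 0, 3 and 3 lower (medians 1.19, 0.73 and 0.82). The kinase gene Plk2 had 0.0537, 0.404, 0.558 and 1.25. Its differences were 2.91, 3.38 and 4.54 here and 0.94, 0.56 and 0.27 in the cells given melatonin, a contrast that was not tested.

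The lowest levels against control were reached at 3 or 5 h. Kbtbd11, an adaptor of ubiquitin ligases, had 44.4, 22.2, 1.11 and 0.6099 (differences -1.004, -5.32 and -6.19), and Ranbp3l, a nuclear export factor, had 16.2, 10.53, 1.94 and 0.143, lowest at 5 h with a difference of -6.82. Angptl4, which blocks lipoprotein lipase, had 3.72, 0.855, 0.108 and 0.1199, and Rab7b, a late endosomal GTPase that lowers Toll-like receptor signalling, 17.4, 9.69, 0.698 and 0.679. Bmf, a pro-apoptotic gene, had 2.32, 0.8297, 0.197 and 0.0749, and the sulfotransferase gene Chst1 32.4, 19.2, 2.14 and 0.888. All 6 were lower at 1 h than in the control, Angptl4, Bmf and Kbtbd11 by at least 2-fold, and lower again at 3 h. The same 6 were lower in the cells given melatonin at 3 h, between -1.97 (Rab7b) and -3.78 (Angptl4).

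Some genes were low for a time and came back. Txnip, which brakes glucose uptake, had 34.9, 9.45, 16.9 and 25.9, and Rgs2, a regulator of G protein signals, 6.38, 1.42, 2.31 and 3.73, both lowest at 1 h. Sgk1, a kinase, had 1.62, 0.377, 0.951 and 0.893, past 2-fold at 1 h only. Kif21b, with 8.702, 6.86, 1.71 and 6.25, Midn, with 14.5, 17.3, 3.28 and 8.24, and Foxo3, with 1.11, 0.826, 0.312 and 0.677, were lowest at 3 h, and past 2-fold there only. In the cells given melatonin Rgs2 did not come back (-1.96, -3.53 and -4.23), while Kif21b did (-0.51, -1.44 and -0.46). By the definition used, 2-fold at 1 or 3 h, within it at 5 h and at least 1 log2 nearer control, 50 genes were transiently lower and 393 transiently higher, 134 of the latter with a signal well above background on 2 arrays or more of the 8.

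Neu3, a membrane sialidase, had the largest difference among the 3 h-only genes that were well above background on all 8 arrays. It had 0.117, 0.148, 1.13 and 0.09495, with differences of 0.34, 3.28 and -0.30 here and of 0.07, 0.20 and 0.07 in the cells given melatonin, which were not tested against each other. Late lows past 2-fold at 5 h only included Ndrg2, with 16.9, 15.9, 8.67 and 3.27, and the CDK inhibitor gene Cdkn2c, with 1.39, 1.02, 0.984 and 0.246.

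Lipid and sterol genes took several courses. The cholesterol exporter Abcg1 had 7.34, 4.26, 0.413 and 0.517, and Abca1 was not well above background on any of the 4 arrays. The fatty acid carrier Fabp4 had 0.07396, 0.185, 0.393 and 0.546, and Lpl, lipoprotein lipase, 23.1, 25.4, 71.7 and 79.3. Hmgcs1, an early enzyme of cholesterol synthesis, had 12.9, 38.3, 20.7 and 31.8, while Dhcr7, a late enzyme of the pathway, had 1.35, 0.975, 0.358 and 0.584 and was lower. Of 20 cholesterol synthesis genes 3, 1 and 6 were higher and 0, 2 and 2 lower (medians 0.28, 0.26 and 0.78). Of 21 lipid efflux and handling genes 1, 5 and 5 were higher and 1, 2 and 2 lower (medians 0.01, 0.00 and 0.08). At both 3 and 5 h 10% of the cholesterol list and 9.52% of the lipid list were lower, against 10.1% and 12.1% of all genes. Higher at 3 and 5 h were 5% and 30% of the former and 23.8% and 23.8% of the latter, against 8.21% and 9.67%.

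Macrophage identity genes moved both ways around a median near 0. Of 22, 0, 1 and 3 were higher and 1, 4 and 6 lower (medians -0.02, -0.02 and -0.05), and at 5 h that was 13.6% higher and 27.3% lower, against 9.67% and 12.1% of all genes. Csf1r, the receptor for the macrophage growth factor, had 285, 275, 158 and 85.4, Cx3cr1 43.1, 37.3, 15.2 and 14.3 and Trem2, a lipid-sensing receptor, 49.7, 42, 30.7 and 18.1. Adgre1, which encodes F4/80, had 6.72, 8.05, 13.1 and 22.2. Lyz2 (-0.46 at 5 h) and Cd68 (0.24) stayed within 2-fold.

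Of 16 clock genes 2, 2 and 1 were higher and 2, 5 and 5 lower. The output factors Dbp, with 2.35, 1.78, 0.834 and 0.704, and Tef, with 4.72, 3.27, 1.46 and 1.17, and the repressor gene Nr1d2, with 0.5996, 0.457, 0.146 and 0.0921, were past 2-fold lower from 3 h, and Per3 too. The list's medians were -0.12, -0.23 and 0.03. Clock and Arntl, the core activators, stayed within 2-fold. Glycolysis and hypoxia genes had 2, 2 and 4 of 21 higher and 0, 2 and 1 lower (medians 0.10, 0.23 and 0.28). The higher shares were 9.52%, 9.52% and 19%, against 3.49%, 8.21% and 9.67% of all genes. The lower shares were 0%, 9.52% and 4.76%, against 2.47%, 10.1% and 12.1%. Of 23 ribosomal protein genes none passed 2-fold (medians 0.04, 0.21 and 0.23), and of 14 reference genes 1, Tfrc, did at 3 and 5 h. With spike-in scaling these medians are lower by the shift given above.

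Genes past 2-fold were also compared between the time courses, each against its own control. Genes of the melatonin time course were counted only among those measured here, with the probe chosen here. Genes above background only with melatonin are thus left out, so the shares of genes higher or lower there do not cover all such genes. Of the 16570 genes, 297, 776 and 980 were at least 2-fold higher with melatonin at 1, 3 and 5 h, and 108, 873 and 1170 lower. Fewer genes thus passed 2-fold there than here at each time, so each overlap is a larger share of the genes there. Of the 1602 genes higher here at 5 h, 817 (51%) were at least 2-fold higher after 5 h of LPS with melatonin as well, which is 83.4% of the genes higher there. At 3 h 638 were shared (46.9% of the genes here and 82.2% there), and at 1 h 212 (36.6% and 71.4%). Lower genes overlapped less at 1 h, 53 genes (13% and 49.1%), and at 5 h 957 were shared (47.7% and 81.8%). Of the 311 genes higher at all 3 times 50.5% were so at the same times with melatonin, and 85.9% were past 2-fold there at their time of largest difference. For the 721 higher at 3 and 5 h the shares were 42.9% and 62%, and for the 1102 lower at 3 and 5 h 41.6% and 60.4%. For the 257 lower at all 3 times they were 9.34% and 38.1%. Of the genes higher at a single time, 12.6% of the 222 at 1 h, 10.9% of the 303 at 3 h and 14.9% of the 544 at 5 h were past 2-fold at that time with melatonin, and of the 95 at 1 h that were above background on 2 arrays or more, 29.5%. The same 28 genes were shared before and after that filter. It counts the melatonin arrays too, so it could only drop genes that were not shared.

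Where a gene had several probes, they mostly moved together. Of the genes at least 2-fold higher at 3 h with another probe well above background, 91.5% of 506 had every other probe on the same side, and 92.7% of 682 lower ones. At 1 h the shares were 90.8% of 131 and 85.9% of 85, and at 5 h 90.5% of 577 and 92% of 853. In 13, 41 and 35 genes at 1, 3 and 5 h a pair of probes passed 2-fold in opposite directions.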

How the data were processed

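Intensity per spot came from the authors' deposited scanner files of 1-colour Agilent arrays (design 074809 per the file headers), read with Agilent Feature Extraction 12.0.3.1 per the submitters' processing notes. Its processed signal is background-subtracted, per the file headers. The flags used for other columns, control type, outlier and well above background, are the authors' deposited ones. The authors' deposited table of log2 values, used as an alternative, holds the same sorted values in every column and correlated with the log2 signal at 0.9992 or more, so it is quantile normalized. The sources used here give no further step behind it.

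Controls (3671 of 62976 spots) and spots flagged as outliers were dropped, and repeated spots of 1 probe were averaged. Signals were divided by the array's 75th percentile and taken to log2. Probes well above background on at least 1 of the 4 arrays entered (27235), and each gene was represented by its probe of highest mean (16570 genes). Symbols were updated by RefSeq accession (32994 probes matched, 1535 changed), and 10314 probes have no symbol. A side not well above background was raised to the lowest signal well above background on that array. The threshold was 2-fold, and no test was run. The steps were tested on simulated data. Python 3.11.15, numpy 2.4.6, pandas 2.3.3, R 4.3.3, limma 3.58.1 (normexp) and version 1.17.8 of data.table were used.

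Named genes were the 10 largest each way at each time whose other probes moved the same way, the 6 largest of each kinetic group, the 12 clearest transients each way, members of 26 gene lists and a panel of 30. Predicted genes were left out. Single-time genes were then drawn from those with a signal well above background on 2 arrays or more of the 8, after their values were seen. Members and lists were chosen with earlier results of these data known. Promoters are the 250 bases before the start in the RefSeq promoters given for GRCm38.p6, searched on both strands, and probe positions are on mm9 per the file headers. Alternatives were 4 other scalings or background corrections, the deposited table, filters, bounds, the probe choice and a 3-fold threshold. Some named genes are not reported here.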

Additional observations from a re-analysis of the deposited data

Results flagged for a closer look

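In 7 genes the 2 time courses passed 2-fold in opposite directions at the same LPS time, each against its own control. With 1 array per condition these differences were not tested.

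At 1 h C130023C23Rik stood at -1.53 log2 without melatonin and 1.33 with it, a bound from a gene well above background on 3 of 8 arrays. At 3 h Rasgef1b, a Ras exchange factor gene, stood at 1.49 without melatonin and -1.15 with it, and was above background on all 8 arrays. At 1 h it stood at 0.92 and -0.27, and at 5 h at 0.78 and -0.56. Tmem140 at 3 h stood at 1.61 and -1.0. At 5 h it was above control in both, at 1.03 and 0.74.

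At 5 h Aatk stood at 1.11 without melatonin and -1.57 with it, although both time courses had it lower at 3 h (-1.49 and -1.40). Garem2 stood at 1.98 and -1.66, a bound from 3 of 8 arrays. The olfactory receptor genes Olfr1243 (1.28 and -1.72) and Olfr1419 (1.07 and -2.27) complete the set. In the cells given melatonin these 2 were lower at 1, 3 and 5 h, Olfr1243 at -2.08, -2.55 and -1.72 and Olfr1419 at -2.59, -2.77 and -2.27. Garem2 stood at -2.00, -2.00 and -1.66 there, but was well above background in that time course on the array of melatonin alone only. Its values are bounds that rest on that array and on the floors of the others. All of these values share the 1 array of melatonin alone as control, and whether those of the olfactory receptor genes rest on that array was not tested. No condition has the 4 arrays that a check for a deviating array needs.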

How the results depend on the processing

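Counts of genes were recomputed under each alternative. No paired analysis was possible because each condition has 1 array. Quantile normalization, the median of probes above background, the deposited table, no filter and the median over probes kept every count over all genes and every kinetic group within 1.5 times. The counts that moved further are given here, as higher or lower genes by the times past 2-fold, and their cause was not tested. Spike-in scaling gave 332 higher at 5 h only, 29 lower at 1 and 3 h, 17 lower at 1 and 5 h and 33 transiently lower. Normexp gave 169 lower at 1 h and 1074 at 3 h (1087 higher), 147 higher at 1 h only, 114 lower at all 3 times, 17 lower at 1 and 3 h, 29 at 1 h only, 153 at 3 h only and 7 at 1 and 5 h, 5 in both directions, and 244 higher and 19 lower transients. Genes above background on at least 2 of 4 arrays gave 271 lower at 1 h, 89 higher at 1 h only, 164 higher at 3 h only, 171 lower at all 3 times, 54 lower at 1 h only and 121 higher transients. Genes above background on all 4 gave 346 higher and 177 lower at 1 h, higher genes numbering 11 at 1 and 3 h, 58 at 1 h only, 122 at 3 h only, 322 at 5 h only and 14 at 1 and 5 h, lower genes 112 at all 3 times, 19 at 1 and 3 h, 37 at 1 h only and 5 at 1 and 5 h, and 62 higher transients. With no bound 47 were higher at 1 and 3 h, 340 at 1 h only and 36 at 1 and 5 h, 386 lower at all 3 times and 33 at 1 and 5 h, 22 went in both directions, and 638 were higher and 111 lower transients. A common floor gave 21 lower at 1 and 3 h, 29 at 1 h only and 7 at 1 and 5 h, and 7 in both directions. A 3-fold threshold gave 325 higher and 142 lower at 1 h, 757 and 663 at 3 h, and 804 and 907 at 5 h. Higher genes then numbered 150 at all 3 times, 13 at 1 and 3 h, 408 at 3 and 5 h, 184 at 3 h only, 237 at 5 h only and 8 at 1 and 5 h, and lower genes 83, 15, 454, 111, 364 and 6, with 36 lower at 1 h only, 2 in both directions and 31 lower transients. Genes above background on at least 2 of 8 arrays, a choice made after seeing the data, gave 95 higher at 1 h only, 171 at 3 h only and 134 higher transients. The median over probes put Cdkn1a at -0.025 at 3 h and -0.132 at 5 h, below control. Of 936 list medians recomputed, 857 moved by less than 0.22 log2 and 79 moved further. That size is the median difference between melatonin alone and the control, which also holds any effect of melatonin. Of 1872 list counts recomputed, 63 moved by over 1.5 times, 54 of them with at most 4 members in both settings. The other 9 were as follows. Above background on all 4 arrays, which lets fewer genes enter, cytokines higher at 1, 3 and 5 h went from 12, 20 and 20 to 5, 12 and 12, and chemokines at 3 and 5 h from 13 and 15 to 7 and 8. The members that entered went from 21 to 12 for cytokines and from 17 to 10 for chemokines, so these counts fell with the number measured. Cholesterol synthesis genes higher at 5 h went from 6 to 3 in the deposited table, lower clock genes at 3 and 5 h each from 5 to 3 with normexp, and Toll-like receptor genes higher at 1 h from 3 to 5 with the median over probes. Signal near background limits the groups given above whose counts fell when all 4 arrays had to be above it.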
